A study of Mus musculus with 3 samples.

Results

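The 32 genes described here encode the integrin subunits and the focal adhesion proteins that were listed by symbol: 15 integrin alpha subunits, 6 beta subunits, the integrin beta-like protein Itgbl1 and 10 adhesion proteins. All 32 were present among the 32285 genes of the count matrices. Cells of synovium and infrapatellar fat pad from knees of wild-type mice (genotype given as wt) were pooled, released with trypsin and then collagenase, sorted for live cells and profiled with droplet single-cell RNA sequencing of transcript 3′ ends, in which every captured molecule carries a unique molecular identifier (UMI). The control library came from mice harvested at 2 months of age, and the other libraries came from mice that had destabilization of the medial meniscus (DMM), a joint surgery that produces osteoarthritis, at 2 months of age and were harvested 1 week or 2 months later. Each library combined 5 to 10 mice and each group was 1 library, so no comparison between groups has a replicate and none was tested. The mice of the library taken 2 months after DMM were older than the control mice, and age and surgery cannot be told apart there.

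Integrins are receptors made of 1 alpha and 1 beta subunit that hold cells to matrix or to other cells, and the alpha subunit largely sets the ligand. Itga1, Itga2, Itga10 and Itga11 pair with Itgb1 and bind collagens, Itga3, Itga6 and Itga7 bind laminins, Itga5, Itga8 and Itgav recognise the RGD motif of fibronectin and related proteins, Itga4 and Itga9 bind ligands such as VCAM1, tenascin and osteopontin, and Itgal, Itgam and Itgax pair with Itgb2 on leukocytes. Inside the cell, talin (Tln1) and kindlin-2 (Fermt2) bind beta-subunit tails, the complex of Ilk, the LIM protein of Lims1 and parvin (Parva) joins them, vinculin (Vcl), alpha-actinin (Actn1) and zyxin (Zyx) connect to actin, and focal adhesion kinase (Ptk2) and paxillin (Pxn) carry signals. In synovium, the lining fibroblasts that secrete lubricin form the surface layer of the joint cavity, while sublining and fat pad fibroblasts lie beneath it.

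Levels are CPM (UMIs of a gene in all cells of a gate per 1000000 UMIs of those cells), given in the order control, 1 week, 2 months unless stated. Bracketed ranges are exact 95% intervals for counting error only, which do not cover differences between mice or between library preparations. Among 9003, 13986 and 10799 barcodes in the 3 libraries, 8099, 12316 and 9782 passed the filter (500 genes or more, mitochondrial share of 10% or less), with 10871, 12919.5 and 13543 UMIs in the median barcode, and any pair of libraries shared 21 to 30 barcode sequences. Fibroblasts (Pdgfra detected, Ptprc and Cdh5 not) numbered 3781, 4748 and 5317, of which 1650, 376 and 1786 had a Clic5 UMI, a lining gene, and 665, 406 and 1376 had a Pi16 UMI, a progenitor gene. These subsets overlap, with 239, 24 and 293 cells in both. Endothelium (Cdh5 without Ptprc) held 1270, 1784 and 1157 cells, mural cells (Notch3 without Pdgfra, Ptprc or Cdh5) 694, 711 and 423 and macrophages (at least 3 C1qa UMIs) 1101, 1969 and 894. Col1a1, Dcn and Lum in fibroblasts, Prg4 and Htra4 in the Clic5+ subset, Dpp4 and Cd34 in the Pi16+ subset, Pecam1 and Kdr in endothelium, Rgs5 and Myh11 in mural cells, and C1qb and Csf1r in macrophages were detected in all 3 libraries. Detection alone does not set the gates apart, because markers of other types were detected in each gate too. In control Pi16+ cells, lining markers summed to 24559 CPM and progenitor markers to 4304. In control endothelium, lining markers summed to 13670 CPM, fibroblast markers to 7441 and endothelial markers to 2795. In control Clic5+ cells, mural cells and macrophages, markers of the own type had the highest sum, at 79008, 20788 and 16441 CPM.

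**Figure D1:**
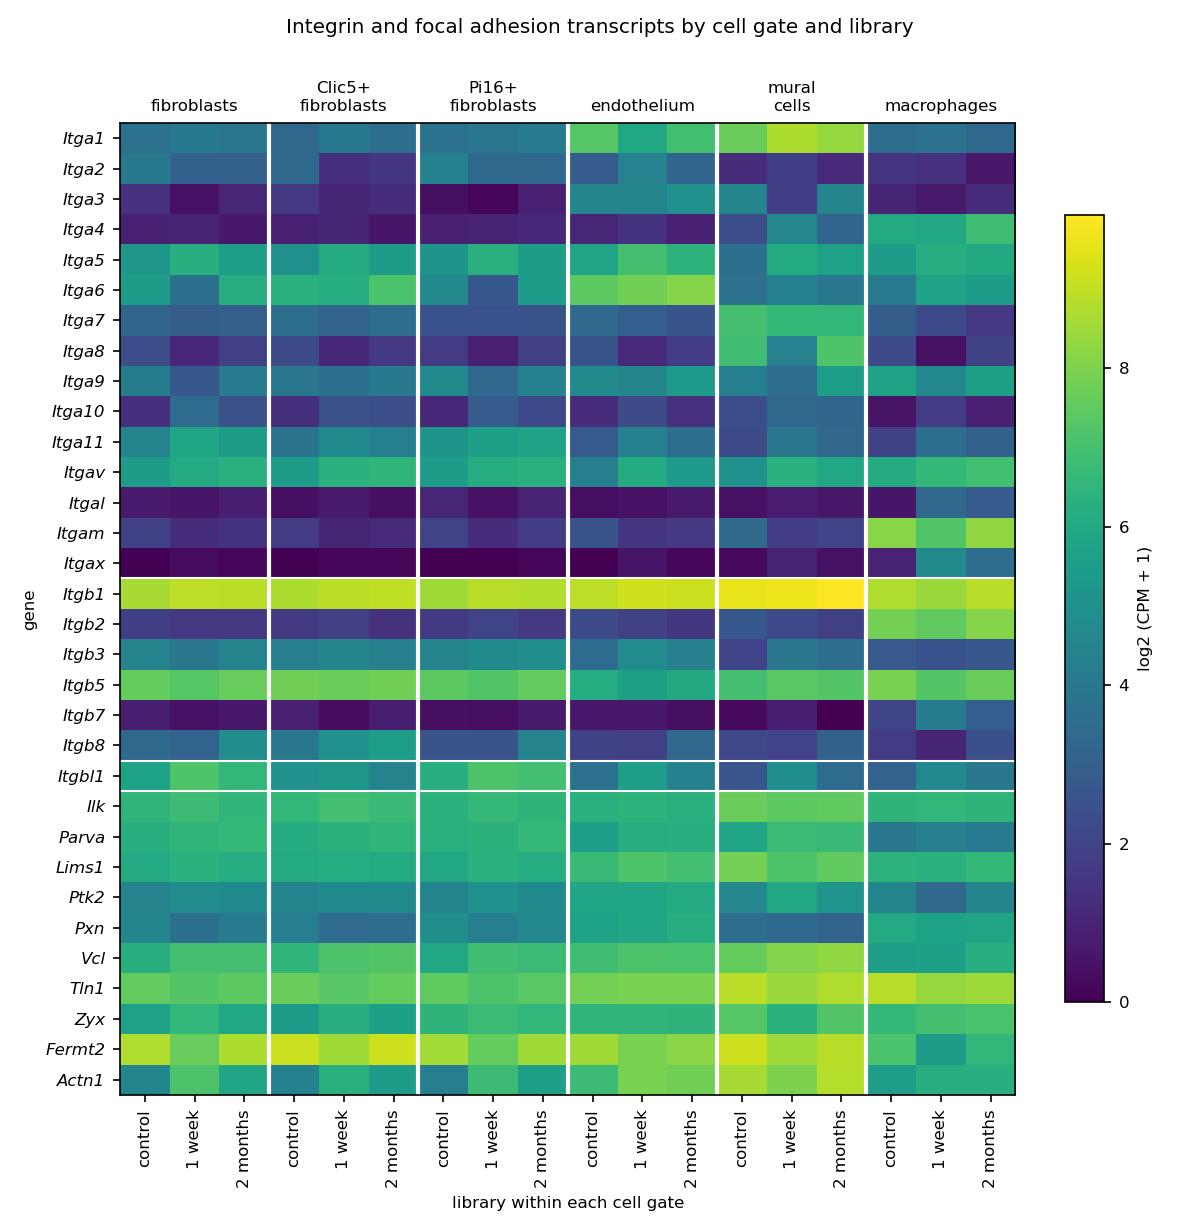
Level of each of the 32 members (rows, grouped as alpha subunits, beta subunits, Itgbl1 and adhesion proteins) in each cell gate and library (columns), as log2 of CPM plus 1 on the colour scale. Itga6 was bright in endothelium and in Clic5+ fibroblasts, Itga1, Itga7 and Itga8 in mural cells, and Itgam and Itgb2 in macrophages.

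In fibroblasts 1 week after DMM, the collagen receptors Itga10 and Itga11, the fibronectin receptor Itga5 and the actin crosslinker Actn1 stood higher than in control, and the laminin receptors Itga3 and Itga6 and kindlin-2 stood lower. Itga5, Itga10, Itga11, Itgbl1 and Actn1 were at least 2-fold higher, and Itga2, Itga3, Itga6, Itga8, Itga9, Itgam and Fermt2 at least 2-fold lower, so 5 of the 31 members with at least 50 UMIs in both sums together were higher and 7 were lower. Among all 14582 genes that met the same minimum, 11.6% were at least 2-fold higher and 10.6% at least 2-fold lower (22.3% either way), and the counts of members are not read as particular to them. The median log2 ratio was -0.26 over the members and 0.02 over all genes. At 2 months, 4 members were at least 2-fold higher (Itga10, Itga11, Itgb8 and Actn1) and 1 lower (Itga2) than in control, beside 5.44% and 4.15% of all genes (9.6% either way). Between 1 week and 2 months, 6 members were higher in the later library (Itga3, Itga6, Itga8, Itga9, Itgb8 and Fermt2) and 2 were lower (Itga10 and Actn1), beside 8.86% and 8.31% of all genes (17.2% either way). Itgax, with 0.0370, 0.222 and 0.102 CPM, was the member that did not reach the minimum.

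**Figure D2:**
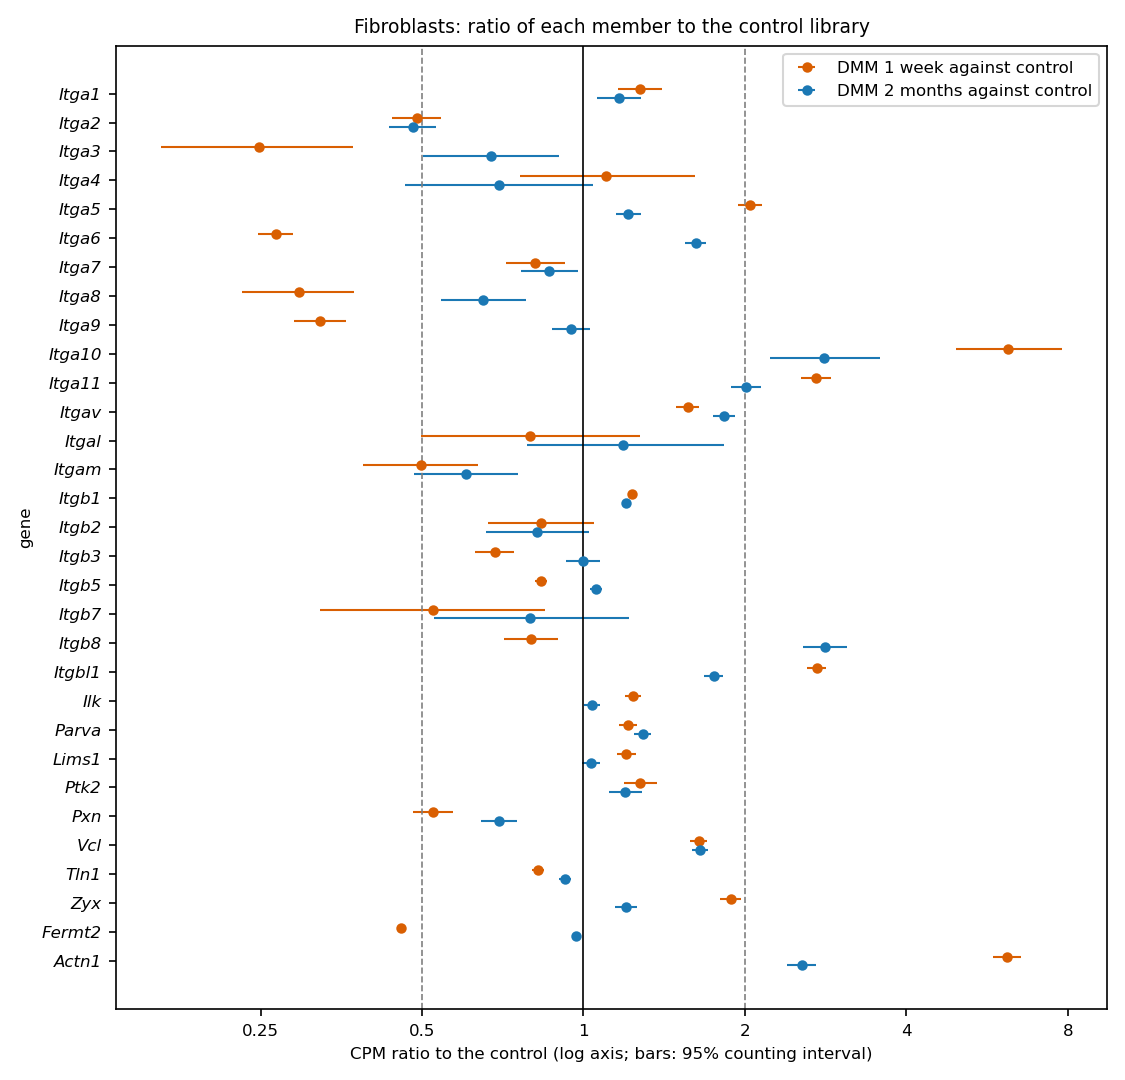
Ratio of CPM in each DMM library to control in fibroblasts (log axis) for the 31 members that reached the UMI minimum. Points are ratios, bars are 95% counting intervals and dashed lines mark 2-fold. Actn1 and Itga10 lay farthest to the right at 1 week, and Itga3, Itga6 and Itga8 farthest to the left.

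The 1-week differences of Itga3, Itga8, Itga9, Itga10 and Actn1 and the 2-month differences of Itga10, Itgb8 and Actn1 lay past 2-fold in every alternative setting that gave a value. Those of Itga2, Itga5, Itga6, Itga11, Itgam, Itgbl1 and Fermt2 at 1 week, and of Itga2 and Itga11 at 2 months, did not. The settings that changed only the UMI minimum reused the same sums and could not move a ratio. They are included wherever settings are counted.

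Among the collagen receptors, Itga10 stood at 1.61, 9.96 and 4.53 CPM in fibroblasts. The 1-week level was 6.19 (4.96 to 7.80) times the control level, and the 2-month level 2.81 (2.23 to 3.58) times. Itga10 is best known from chondrocytes, and chondrocyte markers (Col2a1, Col9a1, Matn3 and Cnmd, all 4 detected in each library) summed to 1.96, 122 and 10.4 CPM in fibroblasts, 2.19, 56.6 and 5.65 in the Clic5+ subset and 3.19, 14.8 and 5.59 in the Pi16+ subset, in the same order of libraries. Their part in the Itga10 ratios was not tested. Itga11, the collagen receptor of mesenchymal cells, stood at 21.4, 58.1 and 43.1 CPM, which is 2.71 (2.54 to 2.89) times control at 1 week and 2.01 (1.88 to 2.15) times at 2 months. In all fibroblasts, both DMM libraries exceeded the control library for Itga10 and Itga11, with the 1-week library highest. In fibroblasts with neither a Clic5 nor a Pi16 UMI, Itga11 stood at 26.9, 62.6 and 63.6 CPM. There the 2-month level was 1.02 (0.966 to 1.07) times the 1-week level. When every cell was first thinned to 3000 UMIs and then gated, the 1-week ratio of Itga11 in all fibroblasts was 1.76, below 2-fold. Its 2-month ratio was past 2-fold in 7 of 12 settings. Itga2 went the other way, at 15.1, 7.39 and 7.26 CPM, with a 1-week ratio of 0.488 (0.440 to 0.543) and a 2-month ratio of 0.480 (0.434 to 0.532). The lowest 1-week ratio of Itga2, 0.316, came from weighting to the control mix of fibroblast subsets described further on, and the highest, 0.537, from removing dividing cells. Itga1 was within 2-fold in fibroblasts, at 12.0, 15.3 and 14.0 CPM. Summed over these 4 receptors, the collagen-binding share of alpha-subunit UMIs was 23.8, 34.5 and 23.4% across the libraries, at summed levels of 50.2, 90.7 and 68.9 CPM.

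Of the RGD-binding subunits, Itga5, the fibronectin receptor, stood at 37.5, 76.8 and 45.5 CPM and was 2.05 (1.95 to 2.15) times control at 1 week. This value lay just past 2-fold, and it was past 2-fold in 6 of 12 settings, with a lowest ratio of 1.65 after thinning. Itgav, which pairs with Itgb1, Itgb3, Itgb5 and Itgb8, stood at 42.6, 66.6 and 77.8 CPM and stayed within 2-fold, at 1.56 (1.49 to 1.64) times control at 1 week and 1.83 (1.74 to 1.92) times at 2 months. Itga8, another RGD receptor, was at 4.09, 1.21 and 2.66 CPM in fibroblasts, and its 1-week ratio was 0.295 (0.231 to 0.374). The RGD-binding share of alpha-subunit UMIs was highest in the 1-week library, at 40.0, 55.0 and 42.8%. The summed levels were 84.2, 145 and 126 CPM. Itga9, a receptor for tenascin and osteopontin, stood at 17.5, 5.66 and 16.6 CPM, and the 1-week library was 0.323 (0.288 to 0.360) times control while the 2-month library was near control at 0.947 (0.874 to 1.03). Itga4 stayed under 1 CPM, at 0.870, 0.960 and 0.604.

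Of the members that reached the minimum, the laminin receptor Itga6 had the largest ratio between the DMM libraries. It stood at 44.4, 11.8 and 71.9 CPM in fibroblasts, 0.267 (0.247 to 0.287) times control at 1 week, 1.62 (1.54 to 1.70) times control at 2 months and 6.07 (5.68 to 6.49) times as high at 2 months as at 1 week. With fibroblasts weighted to the control mix of Clic5 and Pi16 cells, the 1-week ratio was 0.833. The laminin-binding share of alpha-subunit UMIs was 25.7, 7.16 and 27.1%, lowest at 1 week, at summed levels of 54.1, 18.8 and 79.9 CPM. Itga3, at 1.65, 0.410 and 1.11 CPM, had a 1-week ratio of 0.249 (0.163 to 0.372), and Itga7, at 8.07, 6.57 and 6.97 CPM, was within 2-fold in each comparison. The Clic5+ share of fibroblasts was likewise lowest at 1 week, at 43.6, 7.92 and 33.6%, and the levels within that subset are given after the promoter sequences.

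None of the 6 beta subunits differed 2-fold from control at 1 week in fibroblasts. Itgb1, the partner of most alpha subunits listed, stood at 399, 491 and 479 CPM, with ratios to control of 1.23 (1.21 to 1.25) and 1.20 (1.18 to 1.22). Itgb5 stood at 188, 157 and 199 CPM and Itgb3 at 20.8, 14.2 and 20.8 CPM, both within 2-fold. Itgb8, which with Itgav activates latent TGF-beta, differed at 2 months. It stood at 9.89, 7.88 and 27.9 CPM, 2.82 (2.57 to 3.10) times control at 2 months and 0.797 (0.710 to 0.895) times at 1 week. Itgb2 and Itgb7, subunits of leukocytes, were at 2.57, 2.14 and 2.11 and 0.759, 0.398 and 0.604 CPM. Itgam was at 2.85, 1.42 and 1.72 and Itgal at 0.648, 0.515 and 0.768 CPM in the same cells. Macrophage markers summed to 143, 58.2 and 42.9 CPM in the fibroblast sums, highest in control as Itgam was, and their part in the Itgam ratio of 0.497 (0.388 to 0.635) at 1 week was not tested. With cells that held a Pecam1, Rgs5 or C1qb UMI removed, that ratio was 0.750, within 2-fold. That removal left 2339 of 3781 control and 2866 of 4748 1-week fibroblasts.

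Among adhesion proteins, the largest difference was that of Actn1, the actin crosslinker alpha-actinin-1. It stood at 22.7, 140.0 and 58.0 CPM, 6.16 (5.81 to 6.54) times control at 1 week and 2.55 (2.40 to 2.72) times at 2 months, and it was past 2-fold in all 12 settings in both comparisons. Fermt2, kindlin-2, stood at 425, 195 and 412 CPM, 0.458 (0.448 to 0.467) times control at 1 week, or 0.642 times weighted to the control mix of subsets, and 0.968 (0.952 to 0.984) times at 2 months. Vcl stood at 76.3, 125 and 126 CPM, 1.64 (1.58 to 1.70) and 1.65 (1.59 to 1.71) times control. Zyx stood at 49.99, 94.0 and 59.99 CPM, highest at 1 week with a ratio of 1.88 (1.80 to 1.97). Both stayed within 2-fold of control. Pxn went the other way, at 22.3, 11.7 and 15.5 CPM, with a 1-week ratio of 0.525 (0.482 to 0.571). The remaining adhesion proteins differed from control by less: the 1-week ratios were 1.24 for Ilk, 1.21 for Parva, 1.20 for Lims1, 1.28 for Ptk2 and 0.823 for Tln1. Itgbl1, a secreted protein with integrin-like EGF repeats and no transmembrane receptor part, stood at 53.7, 146 and 93.9 CPM, 2.72 (2.62 to 2.84) times control at 1 week, or 1.79 times weighted to the control mix, and 1.75 (1.68 to 1.82) times at 2 months. In fibroblasts with neither a Clic5 nor a Pi16 UMI, Itgbl1 was 2.16 (2.04 to 2.27) and 2.13 (2.01 to 2.25) times control.

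The 250 bases before the start site of the 5 members that were at least 2-fold higher in fibroblasts at 1 week are shown because these genes stood higher together, and promoters were searched on both strands for 2 motifs of mechanically responsive transcription: the letters GGAATG, bound by TEAD factors, and the CArG box of serum response factor. Sequences are from RefSeq for GRCm38.p6, 5′ to 3′ on the strand of the gene, and capitals mark a motif match. RefSeq promoters were matched by symbol for 24 of the 32 members, with 28 start sites.

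Itga5, chr15:103366792-103367041, minus strand: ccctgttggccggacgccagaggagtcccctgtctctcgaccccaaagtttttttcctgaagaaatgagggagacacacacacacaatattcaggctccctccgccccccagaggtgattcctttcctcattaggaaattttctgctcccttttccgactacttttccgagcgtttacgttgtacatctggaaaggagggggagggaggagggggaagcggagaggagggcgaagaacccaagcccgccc

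Itga10, chr3:96645334-96645583, plus strand: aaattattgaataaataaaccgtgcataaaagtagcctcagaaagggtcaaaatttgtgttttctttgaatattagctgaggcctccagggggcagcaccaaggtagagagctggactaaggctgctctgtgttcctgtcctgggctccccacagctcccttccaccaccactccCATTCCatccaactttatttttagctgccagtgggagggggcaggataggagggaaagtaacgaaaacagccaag

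Itga11, chr9:62677605-62677854, plus strand: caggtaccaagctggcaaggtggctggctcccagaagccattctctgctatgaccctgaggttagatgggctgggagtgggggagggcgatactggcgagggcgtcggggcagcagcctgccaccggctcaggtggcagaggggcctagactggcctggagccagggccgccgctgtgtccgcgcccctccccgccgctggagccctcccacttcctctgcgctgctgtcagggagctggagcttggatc

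Itgbl1, chr14:123659890-123660139, plus strand: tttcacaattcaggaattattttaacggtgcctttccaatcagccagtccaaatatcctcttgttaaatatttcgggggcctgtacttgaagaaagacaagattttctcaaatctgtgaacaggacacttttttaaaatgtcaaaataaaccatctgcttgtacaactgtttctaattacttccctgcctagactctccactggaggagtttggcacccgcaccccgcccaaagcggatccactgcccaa

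Actn1, chr12:80260364-80260613, minus strand: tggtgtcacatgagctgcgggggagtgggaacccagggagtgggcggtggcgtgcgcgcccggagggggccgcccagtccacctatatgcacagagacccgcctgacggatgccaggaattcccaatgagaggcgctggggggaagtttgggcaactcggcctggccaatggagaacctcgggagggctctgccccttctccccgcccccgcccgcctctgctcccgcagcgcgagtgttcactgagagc

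In windows of 300 bases (250 before to 50 after the start), 1 of these 5 promoters held GGAATG, that of Itga10 with its first base 75 bases before the start, and none of the 5 held a CArG box. Over 32544 different RefSeq promoter windows of that length, 14.6% held GGAATG and 1.64% held a CArG box. Fermt2, which was lower at 1 week, held a CArG box that began 204 bases before its start. Vcl, within 2-fold, held both, GGAATG from 143 and the CArG box from 227 bases before its start. Itgb1 held GGAATG from 7 bases before its start. A match here is a description of these letters only.

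In each of the 3 libraries, Itga6 and Itgb8 stood higher in Clic5+ fibroblasts than in the others. Within the control library, Itga6 stood at 80.1 CPM in Clic5+ and 7.53 CPM in other fibroblasts, 10.6 (9.19 to 12.3) times as high. The same ratio was 11.3 (9.97 to 12.8) in the 1-week library and 11.05 (10.2 to 12.0) in the 2-month library. Itgb8 in Clic5+ cells was 3.005 (2.46 to 3.69), 5.53 (4.70 to 6.49) and 3.41 (3.13 to 3.73) times its level in other fibroblasts of the same library. Fermt2 was 1.90 (1.85 to 1.96), 2.03 (1.94 to 2.11) and 2.11 (2.06 to 2.15) times as high there. Itgbl1 and Itga11 were placed the other way, with Clic5+ cells at 0.408 (0.377 to 0.443), 0.239 (0.212 to 0.269) and 0.130 (0.121 to 0.139) times the level of other fibroblasts for Itgbl1. For Itga11 these ratios were 0.433 (0.381 to 0.491), 0.408 (0.351 to 0.472) and 0.287 (0.266 to 0.309). In the Pi16+ subset, Zyx had the highest ratio to other fibroblasts in control among the members with a UMI in both, at 2.01 (1.85 to 2.19), beside 1.18 (1.09 to 1.27) at 1 week and 1.90 (1.80 to 2.003) at 2 months.

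Within Clic5+ fibroblasts alone, the Itga6 levels of the control and 1-week libraries lay close together. Itga6 stood at 80.1, 70.0 and 139 CPM there, so the 1-week ratio was 0.874 (0.793 to 0.961) and the 2-month ratio 1.73 (1.65 to 1.82). In Pi16+ fibroblasts it stood at 24.8, 5.67 and 44.4 CPM, with a 1-week ratio of 0.229 (0.160 to 0.320). Of the Pi16+ cells, 239, 24 and 293 were also Clic5+, and lining markers summed to 24559, 4011 and 26471 CPM in the Pi16+ subset. The part of these cells in the Pi16+ ratio of Itga6 was not tested. In fibroblasts with neither gene Itga6 was 8.33, 6.43 and 15.8 CPM. When the fibroblasts of each library were weighted to the control mix of Clic5 and Pi16 cells, a calculation added after the data were seen, the 1-week ratio of Itga6 was 0.833, as given above, and the ratio of 2 months to 1 week was 2.10 in place of 6.07. The weighted 1-week ratios of Fermt2 and Itgbl1 were 0.642 and 1.79, within 2-fold, while those of Itga10 and Actn1 were 4.42 and 4.79. In fibroblasts with neither gene, the 1-week ratio of Itgbl1 was past 2-fold, at 2.16 (2.04 to 2.27). Those of Fermt2, Itga10 and Actn1 there were 0.620, 5.77 and 5.37. Weighted in the same way, Itga3 was at 0.398 times control at 1 week and Itgb8 at 1.63 times its 1-week level at 2 months. Lining markers summed to 42338, 8589.5 and 44626 CPM in all fibroblasts, and dividing-cell markers to 15.5, 136 and 24.9 CPM. Clic5 itself was lower in the Clic5+ cells of the DMM libraries, at 1671, 598 and 839 CPM, and whether the gate holds the same cells in each library was not tested.

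**Figure D3:**
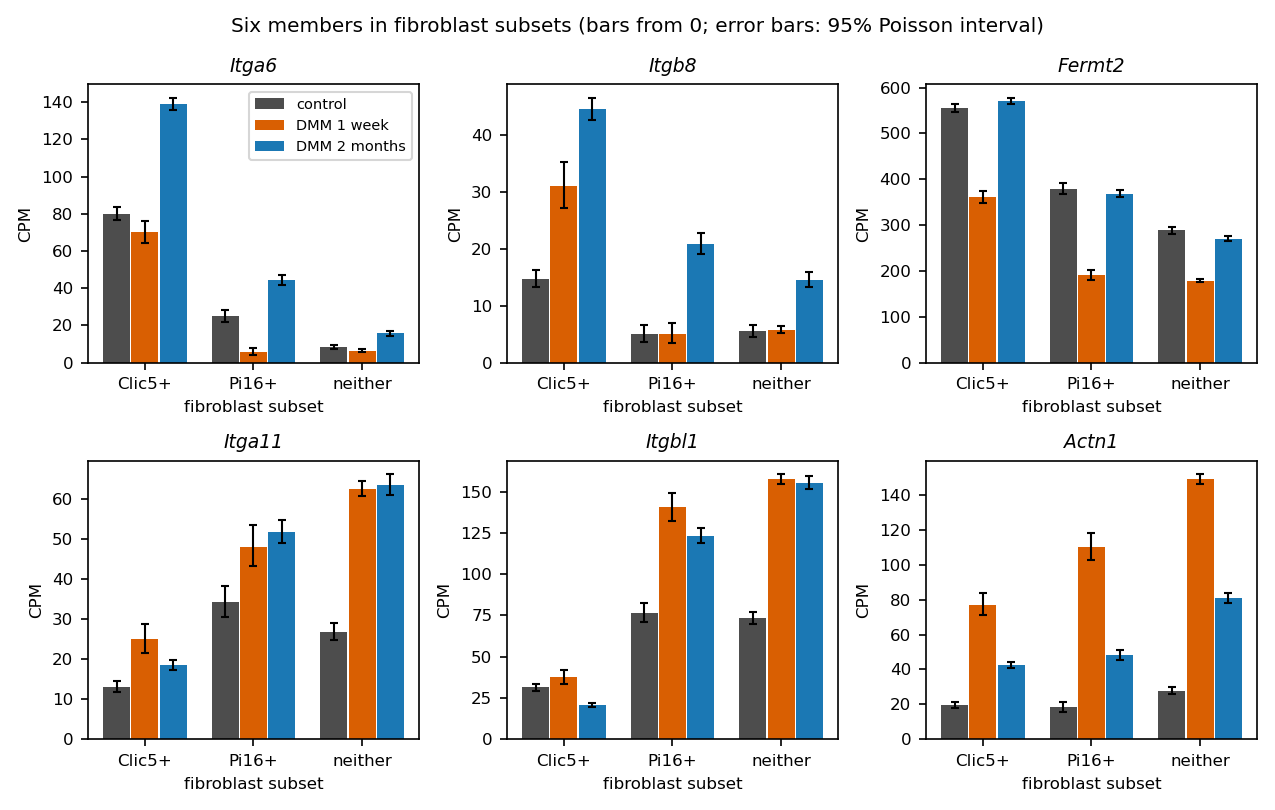
CPM of 6 members in Clic5+ fibroblasts, Pi16+ fibroblasts and fibroblasts with neither gene. Bars start at 0, colours are the libraries and error bars are 95% Poisson intervals. Itga6 in Clic5+ cells stood at 80.1 CPM in control and 70.0 at 1 week, whereas Actn1 was higher in both DMM libraries in each subset.

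In Clic5+ fibroblasts, 4 of the 28 members with enough UMIs were at least 2-fold higher at 1 week (Itga5, Itga10, Itgb8 and Actn1) and 4 lower (Itga2, Itga3, Itga8 and Itgam), beside 5.88% and 8.22% of all genes (14.1% either way). At 2 months, 4 of 29 were higher (Itga10, Itgav, Itgb8 and Actn1) and Itga2 was lower, beside 3.97% and 6.6% (10.6% either way). No member of 28 differed 2-fold between 1 week and 2 months, beside 4.48% higher and 4.92% lower over all genes (9.41% either way). Itgb8 was 14.7, 31.1 and 44.6 CPM in these cells, 2.11 (1.79 to 2.49) times control at 1 week. With cells that held a Pecam1, Rgs5 or C1qb UMI removed, this ratio was 1.23. That removal left 865 of 1650 control and 109 of 376 1-week cells. The 1-week ratio of Itga5, 2.26, was 1.69 in its lowest setting, and that of Itga3, 0.493, was past 2-fold in 5 of 7 settings. Itga2 was 9.14, 1.59 and 2.01 CPM, with ratios to control of 0.174 (0.0885 to 0.309) and 0.220 (0.171 to 0.280). Actn1 was 19.4, 77.1 and 42.5 CPM, 3.98 (3.53 to 4.49) and 2.19 (1.99 to 2.42) times control. After thinning, the 2-month ratio of Actn1 in this subset was 1.34 and that of Itgav 1.64, both below 2-fold.

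In Pi16+ fibroblasts, 3 of 24 members were at least 2-fold higher at 1 week (Itga5, Itga10 and Actn1) and 3 lower (Itga2, Itga6 and Itga9), beside 8.17% and 6.95% of all genes (15.1% either way). At 2 months, 3 of 27 were higher (Itga10, Itgb8 and Actn1) and Itga2 was lower, beside 5.08% and 2.12% (7.2% either way). Between the DMM libraries, Itga6, Itga8, Itga9 and Itgb8 were higher at 2 months and Actn1 lower, 4 and 1 of 27, beside 6.93% and 4.96% (11.9% either way). The 1-week level of Itgb8 in these cells was near control. It stood at 4.95, 4.98 and 21.0 CPM, 1.005 (0.630 to 1.59) times control at 1 week and 4.23 (3.11 to 5.88) times at 2 months. Actn1 stood at 18.2, 110.5 and 48.1 CPM, 6.08 (5.14 to 7.24) times control at 1 week. Itga9 stood at 25.3, 9.54 and 19.8 CPM, 0.377 (0.284 to 0.495) times control at 1 week.

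In the 1-week library, fibroblasts could be split by 3 genes: 2465 had an Acan UMI (aggrecan, a cartilage proteoglycan), 1215 an Mmp13 UMI (collagenase-3), 460 had at least 10 Acta2 UMIs (smooth muscle actin), and 1688 had none of these. The 3 classes overlap. Itga11 stood at 77.4, 72.4 and 76.2 CPM in the Acan, Mmp13 and Acta2 classes and at 31.2 CPM in fibroblasts with none. Itgbl1 was also higher in all 3 classes, at 204, 161 and 157 CPM against 73.5. Actn1 was highest in the Acta2 class, at 245 CPM, beside 168 and 151 in the Acan and Mmp13 classes and 89.9 in those with none. Vcl was also highest in the Acta2 class, at 196 CPM against 119. Itga6 was placed the other way, at 6.83, 8.05 and 6.60 CPM against 20.5. Itga5 stood at 75.3 and 74.8 CPM in the Acan and Mmp13 classes against 74.9, and at 107 CPM in the Acta2 class. Itga1 in the Acta2 class was 41.3 CPM, but 7.41 CPM in the 363 such cells without a Notch3 UMI, the mural gate gene. The 97 Acta2 cells with a Notch3 UMI are included in the other levels given for that class, those of Actn1, Vcl and Itga5 among them. Control held 2 fibroblasts with Acan and 3 with Mmp13, and 80 of its 89 Acta2 cells had a Notch3 UMI, so these classes were not compared between libraries.

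The alpha subunits were also summed, as shares of all alpha-subunit UMIs of a gate. Laminin-binding subunits gave 42.2, 43.2 and 50.2% of them in endothelium, at summed levels of 204, 250 and 316 CPM. Collagen-binding subunits gave 37.8, 57.6 and 43.9% in mural cells, at 214, 442 and 347 CPM. Leukocyte subunits gave 51.2, 35.6 and 43.9% in macrophages, at 287, 186 and 324 CPM. At 2 months the leukocyte level in macrophages was thus above control, although its share was below control. Capture efficiency differs between genes, so these shares describe UMIs and are compared only for the same subunits between libraries. Within Clic5+ fibroblasts, the laminin-binding share was 42.3, 27.4 and 44.6% and the RGD-binding share 34.9, 51.7 and 39.7% in control, 1 week and 2 months. The summed levels behind these shares were 93.2, 79.0 and 151 CPM for laminin-binding and 77.0, 149 and 134 CPM for RGD-binding subunits, so at 1 week the laminin-binding level was somewhat below control and the RGD-binding level above it. In endothelium, the RGD-binding share was 16.05, 34.1 and 20.4% and the collagen-binding share 35.3, 18.1 and 22.6%. The summed levels there were 77.6, 197 and 128 CPM for RGD-binding and 171, 105 and 142 CPM for collagen-binding subunits. In mural cells the laminin-binding share was 28.4, 15.5 and 16.6%, highest in control, at summed levels of 161, 119 and 132 CPM.

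**Figure D4:**
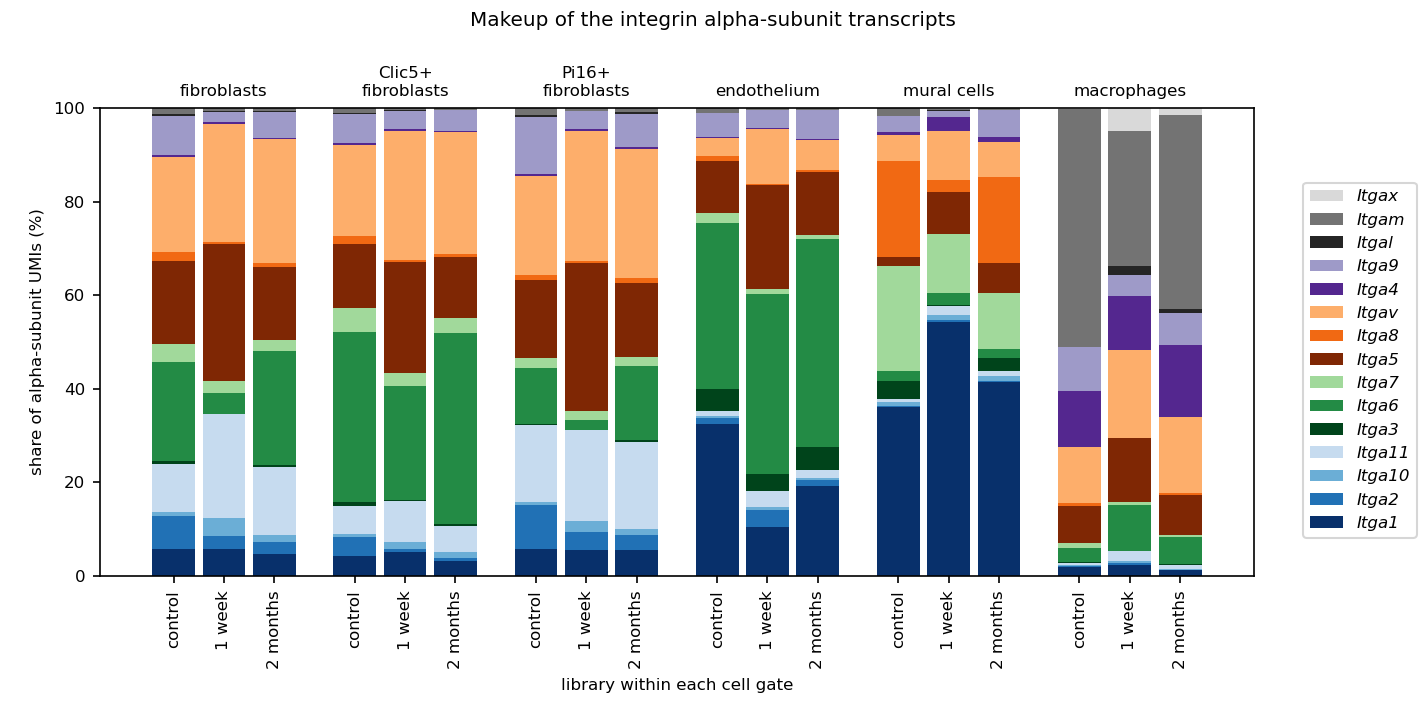
Share of each alpha subunit in the UMIs of all 15 alpha subunits (percent, stacked bars), for each gate and library. Itga6 made up the largest green band in endothelium and Clic5+ fibroblasts, Itga1 the dark blue band in mural cells and Itgam the dark grey band in macrophages.

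In endothelium at 1 week, 8 of 29 members with enough UMIs were at least 2-fold higher than in control and 3 were lower, beside 7.7% and 8.38% of all genes (16.1% either way). The higher ones were Itga2, Itga5, Itga10, Itga11, Itgav, Itgb3, Itgbl1 and Actn1, and the lower ones Itga1, Itga8 and Itgam. At 2 months, Itgav, Itgb8 and Actn1 were higher and Itga8 and Itgam lower, 3 and 2 of 27, beside 3.72% and 2.82% (6.55% either way). From 1 week to 2 months, 2 of 29 members were higher (Itga8 and Itgb8) and 3 lower (Itga2, Itga10 and Itgbl1), beside 6.93% and 5.21% (12.1% either way).

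Among endothelial collagen receptors, Itga1 and Itga2 stood on opposite sides of control. Itga1 was 157, 61.0 and 121 CPM, 0.389 (0.363 to 0.415) times control at 1 week, and Itga2 was 6.44, 20.3 and 8.47 CPM, 3.15 (2.50 to 4.02) times control. Both lay past 2-fold in all 11 settings. The vitronectin receptor pair was higher together: Itgav stood at 18.1, 67.9 and 40.1 CPM, 3.75 (3.27 to 4.32) times control at 1 week, and Itgb3 at 10.2, 26.6 and 19.1 CPM, 2.61 (2.16 to 3.17) times. Itga5 stood at 54.5, 128 and 85.7 CPM, 2.35 (2.17 to 2.55) times control at 1 week and 1.95 times after thinning. Thinning also took the 2-month ratio of Itgav from 2.22 to 1.38. Actn1 stood at 112, 242 and 224 CPM and was 2.17 (2.05 to 2.30) times control at 1 week and 2.003 (1.89 to 2.13) times at 2 months, past 2-fold in 10 and 8 of 11 settings. For Itgav, Itgb3, Itga5 and Actn1 alike, the control library was lowest and the 1-week library highest. Itga6 was 172, 222 and 280.1 CPM and stayed within 2-fold. Fermt2 was within 2-fold as well, at 364, 246 and 292 CPM. Itga8 stood at 4.98, 1.24 and 2.49 CPM, and its 2-month ratio of 0.4999 (0.334 to 0.742) was past 2-fold in 5 of 9 settings. Itgb8 was at 2.84, 2.72 and 8.86 CPM, and 3.12 (2.17 to 4.59) times control at 2 months.

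Some of the higher members in endothelium were also found in neutrophils. At 1 week, Itgbl1 and Itga11 stood at 46.0 and 19.6 CPM in endothelium and at 69.5 and 26.1 CPM in the 513 neutrophils (S100a8 and S100a9 high) of that library. They stood at 23.7 and 10.99 CPM in macrophages and at 29.7 and 14.2 CPM in mural cells of that library. Itga10 stood at 3.89 CPM in 1-week endothelium, 2.37 in macrophages and 3.84 in neutrophils. The median neutrophil had 2440 UMIs, against 11485 in endothelium, 10117 in macrophages and 11025 in mural cells, so these CPM are not like for like. The part of free RNA in the levels of these 3 genes outside fibroblasts was not tested. Fibroblast markers summed to 7441, 15992 and 6369 CPM in endothelium, 2954, 14970 and 5193 CPM in mural cells and 3769, 8827 and 4472 CPM in macrophages, highest at 1 week in each gate. In fibroblasts themselves they summed to 27537, 53863 and 27428 CPM, also highest at 1 week. Lining markers went the other way and were lowest at 1 week. They summed to 13670, 2620 and 10839 CPM in endothelium, 9643.5, 586 and 4014 CPM in mural cells and 9614, 1213 and 5951 CPM in macrophages. The endothelial ratio of Itgav was 5.73 and that of Itgb3 3.98 with cells that held a Pdgfra or C1qb UMI removed, both larger than with them. That removal left 801 control and 1153 1-week endothelial cells. Removing such cells does not remove free RNA, and the part of fibroblast RNA in the Itgav and Itgb3 ratios was not tested. Platelets carry Itga2, Itga6 and Itgb3 as well. Platelet markers (Pf4, Ppbp, Gp9 and Itga2b) summed to 56.2, 33.8 and 33.3 CPM in endothelium and 65.4, 33.1 and 33.6 CPM in fibroblasts. Of these 4 markers, 2, 4 and 3 were detected in endothelium and 2, 3 and 3 in fibroblasts. They summed to 2498, 2111 and 1853 CPM in macrophages, so they are not particular to platelets here. The part of platelets in these ratios was not tested.

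**Figure D5:**
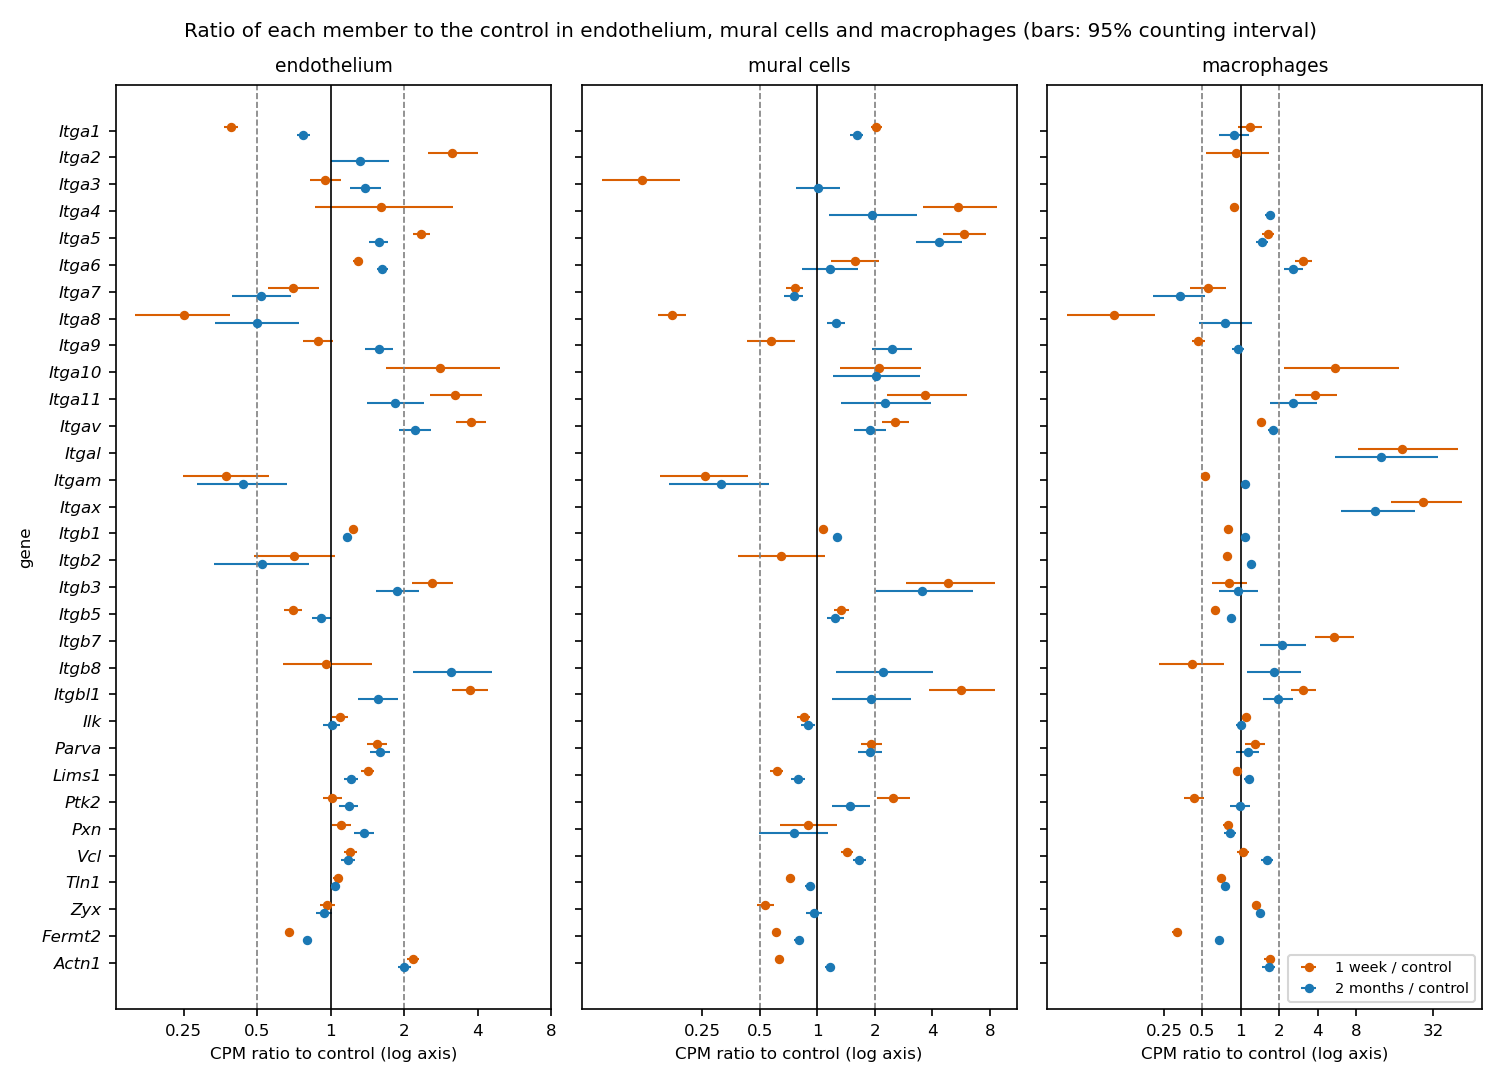
Ratio of CPM in each DMM library to control (log axis) for the members that reached the UMI minimum in endothelium, mural cells and macrophages. Points are ratios, bars 95% counting intervals and dashed lines 2-fold. Itga1 at 1 week lay left of 2-fold in endothelium and right of it in mural cells, and Itgal and Itgax lay farthest right in macrophages.

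Mural cells, the pericytes and smooth muscle cells of vessels, had 9 of 27 members at least 2-fold higher at 1 week (Itga1, Itga4, Itga5, Itga10, Itga11, Itgav, Itgb3, Itgbl1 and Ptk2) and 3 lower (Itga3, Itga8 and Itgam), beside 13.1% and 11.7% of all genes (24.9% either way). At 2 months, 6 of 27 were higher (Itga5, Itga9, Itga10, Itga11, Itgb3 and Itgb8) and Itgam lower, beside 4.96% and 3.39% (8.36% either way). From 1 week to 2 months, 4 of 26 were higher (Itga3, Itga8, Itga9 and Itgb8) and 2 lower (Itga4 and Itgbl1), beside 8.19% and 7.79% (16.0% either way).

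Itga8 and the laminin receptor Itga3 were at least 2-fold lower at 1 week and within 2-fold of control at 2 months. Itga8 stood at 116, 20.2 and 145 CPM in mural cells, 0.174 (0.146 to 0.206) times control at 1 week and 1.25 (1.13 to 1.39) times at 2 months. Itga3 stood at 21.6, 2.62 and 21.8 CPM, 0.121 (0.0740 to 0.190) times control at 1 week. The smooth muscle gene Myh11 was likewise lowest at 1 week in this gate, at 2793, 516 and 2543 CPM, as was Acta2, at 16449, 4334 and 10771 CPM, while the pericyte gene Rgs5 was 629, 5223 and 2903 CPM. Their part in the Itga8 and Itga3 values was not tested. Itga5 stood at 11.8, 69.0 and 51.0 CPM, 5.85 (4.54 to 7.64) and 4.33 (3.30 to 5.74) times control, or 3.14 and 1.99 times with every cell weighted equally. Both DMM libraries thus stood above control for this fibronectin receptor. Itga4 stood at 4.22, 23.0 and 8.15 CPM, 5.45 (3.56 to 8.71) times control at 1 week, beside 0.960 CPM in fibroblasts of that library. Itgav stood at 31.2, 79.8 and 58.6 CPM and Itgb3 at 2.99, 14.5 and 10.6 CPM, with 1-week ratios of 2.56 (2.17 to 3.04) and 4.84 (2.91 to 8.56). The 1-week level of Itgb3 was close to the 14.2 CPM of neutrophils in that library. At 2 months, Itga9 stood at 2.45 times control, or 1.30 times after thinning.

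Itga1 stood at 205, 416 and 328 CPM, and its 1-week ratio of 2.04 (1.91 to 2.18) was past 2-fold in 7 of 11 settings. Ptk2 stood at 23.4, 58.6 and 34.9 CPM, 2.50 (2.06 to 3.05) times control at 1 week and 1.76 times after thinning. Vcl and Parva were within 2-fold, at 189, 269.6 and 312 and 55.6, 107 and 105 CPM, and so were Tln1, Zyx, Fermt2 and Actn1, all 4 lower at 1 week than in either other library. Actn1 in mural cells stood at 392, 248 and 454 CPM, with a 1-week ratio of 0.633 (0.597 to 0.672), whereas it was above control in fibroblasts and endothelium at that time. Dividing-cell markers summed to 2.99, 297 and 42.9 CPM and macrophage markers to 569.8, 68.7 and 123 CPM in mural cells, and their part in these ratios was not tested.

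In macrophages at 1 week, 7 of 31 members were at least 2-fold higher than in control (Itga6, Itga10, Itga11, Itgal, Itgax, Itgb7 and Itgbl1) and 5 lower (Itga8, Itga9, Itgb8, Ptk2 and Fermt2), beside 8.66% and 9.96% of all genes (18.6% either way). At 2 months, 5 of 29 were higher (Itga6, Itga11, Itgal, Itgax and Itgb7) and Itga7 was lower, beside 3.96% and 3.93% (7.89% either way). From 1 week to 2 months, 5 of 29 were higher (Itga9, Itgam, Itgb8, Ptk2 and Fermt2) and 3 lower (Itga10, Itgax and Itgb7), beside 7.3% and 6.13% (13.4% either way).

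Leukocyte integrins gave the largest ratios in macrophages. Itgax, which encodes CD11c, stood at 0.959, 25.8 and 10.8 CPM, 26.9 (14.9 to 54.2) times control at 1 week and 11.3 (6.11 to 23.2) times at 2 months. Itgal, which encodes the alpha subunit of LFA-1, stood at 0.523, 9.59 and 6.50 CPM, 18.3 (8.29 to 50.5) and 12.4 (5.46 to 34.9) times control. Both genes rest on few control UMIs (11 and 6), so their intervals are wide, and in the settings tried the 1-week ratio ran from 24.8 to 65.9 for Itgax and from 9.53 to 27.1 for Itgal. Itgb7, the partner of Itga4 on gut-homing leukocytes, stood at 3.23, 17.2 and 6.84 CPM, 5.34 (3.81 to 7.70) times control at 1 week and 2.12 times at 2 months, or 1.42 times with cells that held a Pdgfra, Cdh5 or Notch3 UMI removed. Itgam, which encodes CD11b, stood at 285, 151 and 307 CPM and its partner Itgb2 at 233, 181 and 281 CPM, and both were lowest at 1 week and within 2-fold of control. Itgal and Itgax stood at 123 and 25.0 CPM in neutrophils of the 1-week library, and neutrophil markers summed to 80.0, 716 and 4440.3 CPM in macrophages. The Itgal and Itgax levels were higher at 1 week than at 2 months, whereas the neutrophil markers were highest at 2 months. Their part in the ratios was not tested.

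Itga6 stood at 16.6, 51.1 and 42.4 CPM in macrophages, 3.08 (2.64 to 3.61) and 2.56 (2.16 to 3.04) times control. After thinning, these ratios were 7.97 and 5.63. Lining markers summed to 9614, 1213 and 5951 CPM in macrophages, highest in control, where Itga6 was lowest. Endothelial markers, of cells that also hold Itga6, summed to 76.6, 135 and 58.9 CPM there, highest at 1 week as Itga6 was, and the part of either in the Itga6 ratios was not tested. Itga4 stood at 66.7, 59.5 and 114 CPM, Itgav at 67.6, 98.0 and 120.3 CPM and Itga5 at 43.7, 71.3 and 64.1 CPM, all within 2-fold of control. The adhesion proteins Fermt2 and Ptk2 were lowest in the 1-week library. Fermt2 stood at 138, 43.3 and 93.3 CPM, 0.315 (0.291 to 0.341) times control at 1 week. Ptk2 stood at 22.5, 9.72 and 22.1 CPM, 0.432 (0.360 to 0.518) times control at 1 week. Fermt2 and the lining markers stood in the same order over the libraries. With cells that held a Pdgfra, Cdh5 or Notch3 UMI removed, the 1-week ratios were 0.125 for Fermt2 and 0.266 for Ptk2, farther from control than with them. That removal left 849, 1596 and 718 macrophages. Removing such cells does not remove free RNA, and its part in the Fermt2 and Ptk2 ratios was not tested. Itga9, at 52.1, 24.2 and 49.4 CPM, had a 1-week ratio of 0.464 (0.413 to 0.522), past 2-fold in 9 of 11 settings.

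Set side by side over fibroblasts, endothelium, mural cells and macrophages, 11 members were within 2-fold of control or under the minimum in each gate at 1 week, and 16 at 2 months. Such counts over gates were not made for all genes, so those given here are not read as particular to the members. The members of that kind at 1 week were Itga7, Itgb1, Itgb2, Itgb5, Ilk, Parva, Lims1, Pxn, Vcl, Tln1 and Zyx. Itga5, Itga10, Itga11 and Itgbl1 were at least 2-fold higher in 3 or all 4 gates at 1 week, and the neutrophil levels of the last 3 are given above. Itga5 was past 2-fold in fibroblasts, endothelium and mural cells and stood at 1.63 (1.48 to 1.81) times control in macrophages. Itga8 was lower in all 4 gates and Itgam in 3. Of these, Itga8 was highest in mural cells and Itgam in macrophages. Mural markers summed to 943, 659 and 616 CPM in endothelium and 666, 303 and 307 CPM in macrophages, and macrophage markers to 181, 67.5 and 76.6 CPM in endothelium, each highest in control as Itga8 and Itgam were in those gates, and their part in the lower ratios was not tested. At 2 months, Itga11 and Itgb8 were higher in 3 gates each.

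Other genes of the same pathway were described in fibroblasts from lists of related genes, by their counts and by the highest and lowest ratios among genes with at least 200 UMIs. Of 33 further adhesion adaptors, 31 had enough UMIs, and 3 were at least 2-fold higher and 4 lower at 1 week, beside 11.6% higher and 10.6% lower over all genes, with a median log2 ratio of 0.10. Fblim1, which encodes migfilin, stood at 2.06 and 10.4 CPM in control and 1 week, 5.06 (4.15 to 6.23) times control. Tns3, a tensin, stood at 9.91 and 34.5 CPM, 3.48 (3.17 to 3.82) times. Lims2, the close relative of Lims1, was lowest in ratio, at 50.1 and 5.05 CPM and 0.101 (0.0907 to 0.112) times control. Kank1 followed, at 13.5 and 4.74 CPM and 0.352 (0.311 to 0.398) times. Of 28 matrix ligands, 27 had enough UMIs, and 10 were higher and 7 lower, beside the same 11.6% and 10.6%. Tnc (tenascin-C, bound by Itga9) stood at 4.72 and 284 CPM, 60.3 (53.3 to 68.4) times control, and Spp1 (osteopontin, bound by Itgav and Itga9) at 36.1 and 1281 CPM, 35.5 (34.0 to 37.2) times. Ccn2 stood at 1175 and 212 CPM, 0.180 (0.177 to 0.183) times control, and Vtn (vitronectin) at 8.46 and 2.47 CPM, 0.292 (0.247 to 0.344) times. At 2 months, 6 of 27 matrix ligands were at least 2-fold higher and none was lower, beside 5.44% and 4.15% of all genes, with Tnc at 24.8 (21.9 to 28.2) and Spp1 at 18.5 (17.7 to 19.4) times control.

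Of 18 cell-surface ligands and partners, 16 had enough UMIs, with 1 higher and 4 lower at 1 week, beside 11.6% and 10.6% of all genes, and a median log2 ratio of -0.17. Cd63 and Cd151 are tetraspanins, and Cd151 is a partner of laminin-binding integrins. Cd63 stood at 1010.5 and 2034 CPM, 2.01 (1.99 to 2.03) times control, and Cd151 at 169.6 and 42.6 CPM, 0.251 (0.241 to 0.261) times. Icam1, a ligand of Itgal with Itgb2, stood at 157 and 28.2 CPM, 0.180 (0.172 to 0.188) times control. Vcam1, a ligand of Itga4 and Itga9, stood at 64.8 and 119.6 CPM, 1.85 (1.78 to 1.92) times control. Of 6 further integrin subunits, 2 had enough UMIs in fibroblasts and neither differed 2-fold. Itga2b, the platelet integrin, stood at 35.1 and 20.8 CPM, 0.592 (0.554 to 0.632) times control, and was the only gene of that list with at least 200 UMIs.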

How the data were processed

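The authors deposited unnormalized UMI counts per gene and barcode for 3 libraries, 1 per group. The file headers name Cell Ranger 5.0.0 (control and 1 week) and 5.0.1 (2 months), and the submitters' processing notes name Cell Ranger 6.0.1 and mm10. The barcode filter and any doublet removal before deposit are not given in the sources used here.

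Kept barcodes had 500 genes or more and a mitochondrial share of 10% or less. Cells were gated by single genes as named in the report, counts were summed per gate, and CPM carries an exact Poisson 95% interval. Ratios carry exact conditional binomial intervals, and shares of UMIs were computed with exact Clopper-Pearson intervals. Members count as higher or lower past 2-fold with at least 50 UMIs in both sums together and at least 50 cells per library. A sum of 0 was raised to 3 UMIs. Doublets called by Scrublet in scanpy (313, 507 and 460 barcodes) stayed in. All 32 members are named, and from each pathway list the 2 highest and 2 lowest 1-week ratios in fibroblasts with at least 200 UMIs. Members and lists were chosen with earlier results of these data known. Every ratio was recomputed in 11 other settings (scalings, UMI minimums, cell filters, stricter gates, gates without a second marker, equal cell weights, thinning, no dividing cells), and in fibroblasts in 1 more that was added after the data were seen. Python 3.11.15, numpy 2.4.6, scipy 1.17.1, pandas 2.3.3, scanpy 1.11.5 and matplotlib 3.10.9 were used, and the ratio code was tested on simulated counts.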

Additional observations from a re-analysis of the deposited data

Results flagged for a closer look

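For 4 members, the 1-week ratio to control lay past 2-fold in opposite directions in a pair of gates, and in each case the difference between the gates was not tested. Itga1 was 2.04 times control in mural cells and 0.389 times in endothelium. Itga2 was 3.15 times control in endothelium and 0.488 times in fibroblasts. Itga6 was 3.08 times control in macrophages and 0.267 times in fibroblasts. With fibroblasts weighted to the control mix of Clic5 and Pi16 cells it was 0.833 times control, and within Clic5+ cells 0.874 times, both within 2-fold. In fibroblasts with neither gene it was 0.772 times control, and in Pi16+ fibroblasts it was past 2-fold lower, as given above. Ptk2 was 2.50 times control in mural cells and 0.432 times in macrophages.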

How the results depend on the processing

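No paired analysis was possible because each group was 1 library. Over 11 other settings and 1 added after the data were seen, 5324 member ratios were recomputed, of which 4421 lay within the counting interval of the reported value and 903 outside it. The settings that changed only the UMI minimum could not move a ratio, so agreement in them is no support. None of the ratios past 2-fold took the other sign. Of 125 such ratios over the 6 gates and 3 comparisons, 73 were past 2-fold in every setting that gave a value. Scaling moved the median log2 ratio of all genes by at most 0.0990.

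Counts of members past 2-fold that moved by more than 1.5 times are given here, and the cause was not tested. They stand without the number of members that met the minimum and the share of all genes past 2-fold in each setting. They are therefore not read as results about the members. With cells thinned to 3000 UMIs before gating, 7 members differed in fibroblasts at 1 week and 5 between the DMM libraries. Thinning left 456, 100 and 522 Clic5+ cells and 257, 107 and 553 Pi16+ cells in control, 1 week and 2 months. In Clic5+ fibroblasts it left 0 members at 1 week and 1 at 2 months, and in Pi16+ fibroblasts 2 at 1 week, 2 at 2 months and 0 between the DMM libraries, where fewer cells and UMIs remained. In endothelium it left 7 at 1 week and 2 at 2 months, in mural cells 3 at 1 week, 1 at 2 months and 3 between the DMM libraries, and in macrophages 1 at 2 months and 5 between the DMM libraries. With a minimum of 200 UMIs, fewer members were counted: 4 in Clic5+ fibroblasts at 1 week, 2 in endothelium at 2 months and 3 between the DMM libraries, 7 and 2 in mural cells at 1 week and 2 months, and 1 in macrophages at 2 months. With no UMI minimum, 10 differed in Pi16+ fibroblasts at 1 week and 9 between the DMM libraries. Between the DMM libraries in Clic5+ fibroblasts, where the reported count was 0, it was 1 with median-of-ratios scaling, 1 without the 50 most abundant genes, 3 with no UMI minimum, 3 with 1000 genes or more and a mitochondrial share of 5% or less, 2 with called doublets removed, 4 with cells of a second marker removed and 1 with every cell weighted equally. At 1 week in Clic5+ fibroblasts it was 5 with stricter gates and 5 with cells of a second marker removed. Stricter gates left 1 in Pi16+ fibroblasts between the DMM libraries, and removing cells of a second marker left 3 in macrophages at 2 months. Between the DMM libraries in macrophages, 5 differed with every cell weighted equally and 4 with dividing cells removed. With fibroblasts weighted to the control mix of subsets, 2 differed between the DMM libraries. Genes with few UMIs, such as Itgal and Itgax in control macrophages, are limited by depth.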

Other observations

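Leukocytes outside the compared gates held members too, and their cell numbers were too few in some libraries to compare. Itgam and Itgb2 were also at high levels in macrophages, as given above. Neutrophils numbered 67, 513 and 841, with Itgam at 308, 270.3 and 452 CPM, Itgb2 at 289, 289 and 343 CPM and Itgal at 127, 123 and 142 CPM. In the 93 T cells of the 1-week library, Itgb7 stood at 191 CPM and Itga4, its partner, at 124 CPM, beside 17.2 and 59.5 CPM in macrophages of that library. The 1-week library also held 39 cells with Acp5, Mmp9 and Ctsk, genes of bone-resorbing osteoclasts, where control held 0 and the 2-month library 1. In them, Itgav stood at 206 CPM and Itgb3 at 68.3 CPM, the pair that forms the osteoclast vitronectin receptor, beside 98.0 and 4.65 CPM in macrophages of that library.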
